A study of Rattus norvegicus with 12 samples.

Results

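Cytochrome P450 genes, all members with a Cyp symbol that the arrays measured under a single gene name apart from Cyp51, numbered 66 among the 14324 genes so named, each with 1 probe set of the 27342 on the array. The rule that took them uses the symbol alone and no measured value. RNA came from monolayer cultures of heart cells of 2-day-old Sprague-Dawley rats, prepared by enzymatic digestion, grown for 3 days and then exposed for 3 days. The DEHP group received 50 µg/mL di(2-ethylhexyl) phthalate, a plasticizer of flexible plastics, in 0.1% DMSO, and the control group received 0.1% DMSO alone. Each group had 6 cultures, called biological replicates by the submitters, on 1 array each. All cells came from 1 litter, so the spread measured here is between cultures and arrays, not between litters. The comparison asked how transcripts of cultured cardiomyocytes differ at a DEHP concentration chosen as relevant to clinical exposure.

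P450 enzymes carry a heme group and use it to insert oxygen into small molecules. Those of the Cyp1, Cyp2 and Cyp3 families act mainly on drugs, pollutants and some fatty acids, and those of the Cyp4 family mainly hydroxylate fatty acids and eicosanoids. The other families make and break down steroids, retinoic acid, bile acids, oxysterols and vitamin D. Several genes are classical markers of receptor activation in liver, with Cyp1a1 induced through the aryl hydrocarbon receptor, Cyp2b through CAR, Cyp3a through PXR and Cyp4a through PPAR alpha. In rodent liver phthalate plasticizers are known peroxisome proliferators. In the heart, P450 epoxygenases and hydroxylases are known for making vasoactive and cardioactive products of arachidonic acid.

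Of the 66 P450 genes, 5 were higher under DEHP, 1 was lower and 60 did not pass (limma, adjusted p under 0.05 over all probe sets). The rises were in Cyp7b1, Cyp4b1, Cyp27a1, Cyp4f5 and Cyp4v3, and the fall was in Cyp2s1. The 6 calls are 9.09% of the members, where 18.3% of all probe sets passed, 10.5% of them as higher and 7.82% as lower, and 24.4% of those with a single gene name passed. The median log2 fold of the members was −0.05, against −0.02 over all probe sets. The groups did not overlap in 4 members (6.06%), against 12.2% of all probe sets. Outside the 6 calls, log2 folds ran from −0.25 to 0.27.

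**Figure D1:**
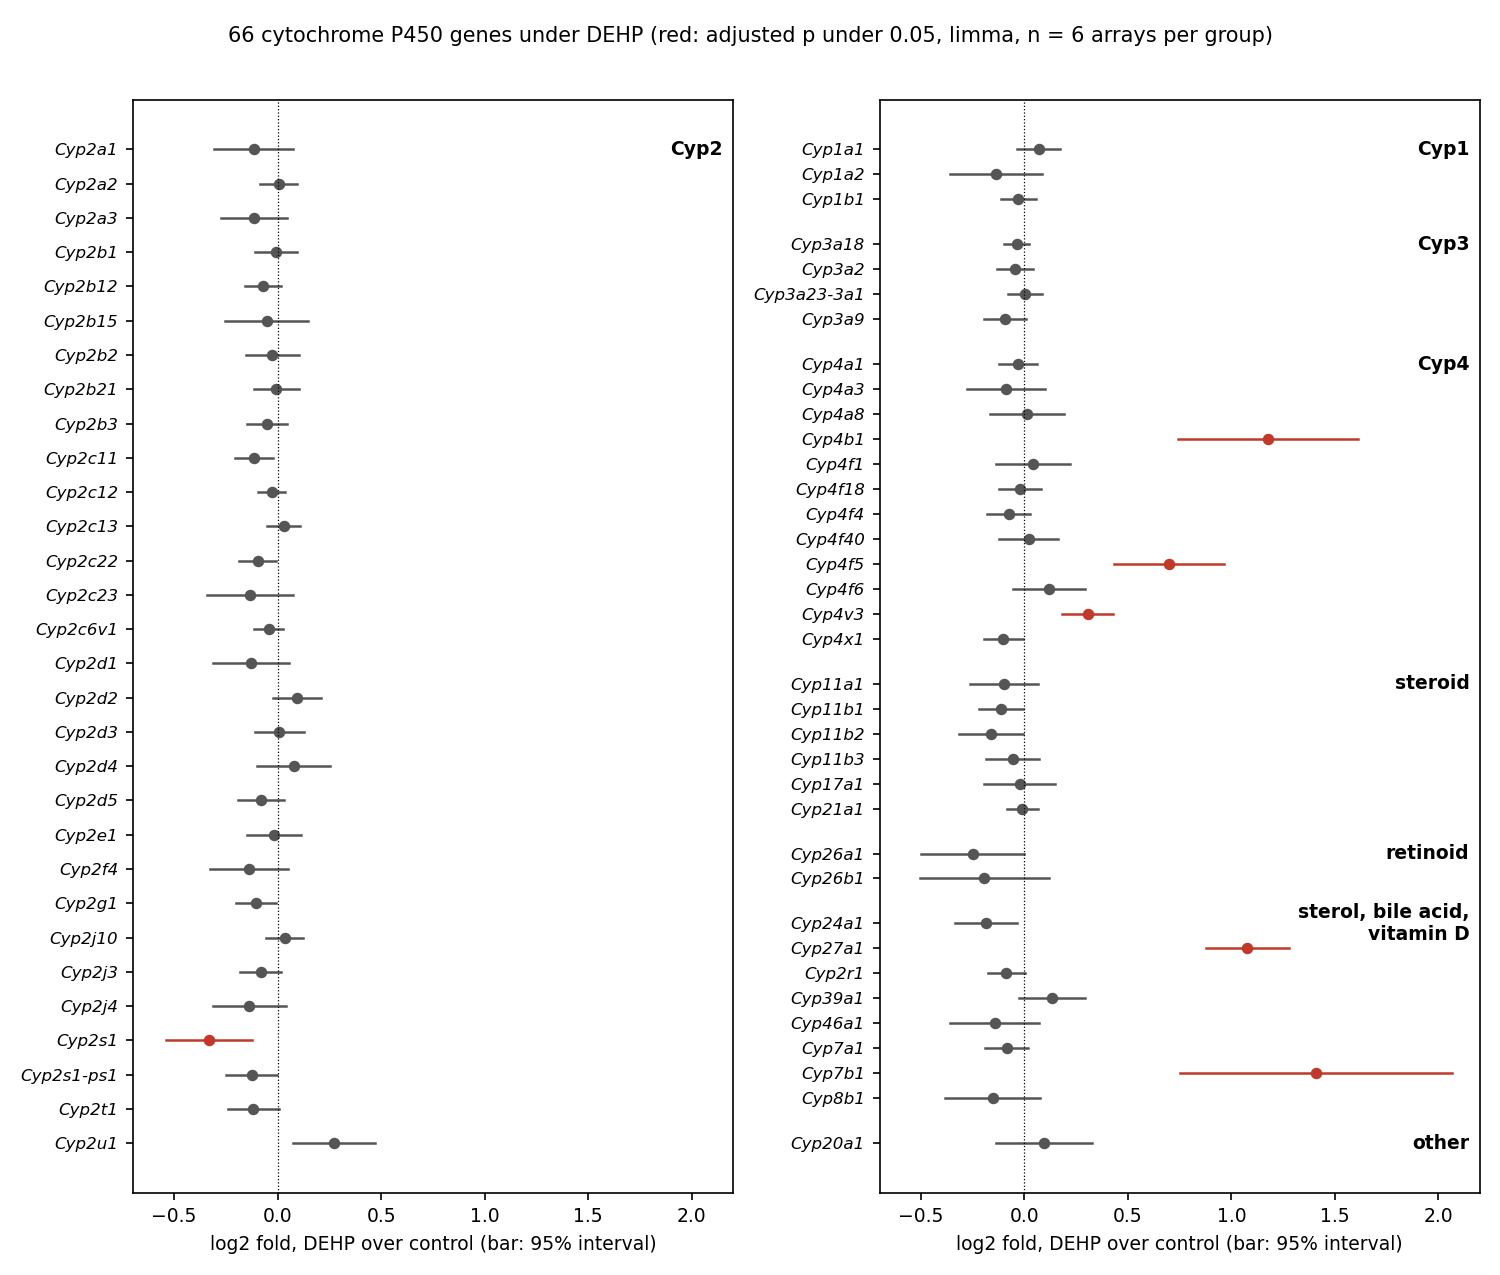
Log2 fold of each of the 66 P450 genes, DEHP over control, with its 95% interval from the limma fit (n = 6 arrays per group), grouped by family. Red marks the 6 genes that passed, of which 5 lie to the right of 0 and Cyp2s1 to the left, while the other 60 lie between −0.25 and 0.27.

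All values below are log2 ratios to the median of the 12 arrays for that probe set. They do not hold the level of a gene, so members cannot be ordered by abundance and a transcript that was absent cannot be told from a steady one. The spread of an array's ratios over all probe sets was an SD of 0.37 in control replicate 5 and of 0.27 in DEHP replicate 6, and 0.15 to 0.19 elsewhere. Control replicate 5 held the highest of the 12 values in 36 of the 66 members (54.5%) and in 33.6% of all probe sets. Without both arrays, 6 members were higher, namely the same 5 and Cyp2u1, and 1 was lower, Cyp26b1 in place of Cyp2s1. Of all probe sets 21.1% passed without both arrays. Against a minimum fold of 1.2, Cyp7b1, Cyp4b1, Cyp4f5 and Cyp27a1 passed and Cyp4v3 and Cyp2s1 did not. At that setting 4 of the 66 members passed and 4.32% of all probe sets did, so the members' share was not the lower one.

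Of the 8 members of the sterol, bile acid and vitamin D group 2 rose (25.0%), beside the 24.4% of probe sets with a single gene name that passed in either direction. The smallest p of all 66 members belonged to Cyp27a1, the mitochondrial enzyme that hydroxylates the side chain of cholesterol and its bile acid precursors. It was 2.11-fold higher (log2 fold 1.08 ± 0.09 SE, adjusted p = 3.67e-06). Its log2 ratios in controls had a lowest value of −0.76, a median of −0.50 and a highest of −0.36, and those under DEHP ran from 0.36 through a median of 0.55 to 0.89. Every DEHP culture lay above every control culture, by at least the distance from −0.36 to 0.36. The log2 fold stayed between 1.01 and 1.12 when each array was left out in turn.

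Cyp7b1, a microsomal oxysterol hydroxylase that acts on the product of Cyp27a1, was 2.65-fold higher (log2 fold 1.41 ± 0.30 SE, adjusted p = 0.00511). Controls had −1.08, −0.63 and −0.36 as lowest, median and highest log2 ratios, and DEHP cultures had 0.36, 0.45 and 2.37. The groups did not overlap, and a single DEHP culture carried the top value, since DEHP replicate 6 stood at 2.37 and the other 5 lay between 0.36 and 0.48. Without that array the log2 fold was 1.09 with an adjusted p of 9.01e-06, so the call held with a smaller value.

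The other 6 members of the sterol, bile acid and vitamin D group did not pass. Cyp7a1, the rate-limiting enzyme of classical bile acid synthesis in liver, had a log2 fold of −0.09 ± 0.05 (95% interval −0.19 to 0.02), and Cyp8b1, which sets the balance of cholic acid in bile, had −0.15 ± 0.11 (−0.38 to 0.08). Cyp39a1, an oxysterol hydroxylase, had 0.13 ± 0.07, and Cyp46a1, the cholesterol hydroxylase of neurons, −0.14 ± 0.10. Cyp24a1, which breaks down active vitamin D, had −0.19 ± 0.07 with an adjusted p of 0.0853, and passed after quantile normalization (−0.17, 0.0181), cyclic loess (−0.12, 0.0198) or array weights (−0.16, 0.00768). Cyp2r1, which activates vitamin D in liver, had −0.09 ± 0.04.

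Among the 12 Cyp4 genes 3 rose (25.0%), 0 fell and 9 did not pass. That share lay near the 24.4% of probe sets with a single gene name that passed in either direction. Cyp4b1, which hydroxylates medium-chain fatty acids and activates some xenobiotics in the lung, was 2.26-fold higher (log2 fold 1.18 ± 0.20 SE, adjusted p = 0.00101). Its controls had −0.43, −0.16 and 0.04 as lowest, median and highest log2 ratios, and its DEHP cultures −0.04, 1.15 and 1.31. In 5 DEHP cultures the ratio lay between 1.06 and 1.31, and in DEHP replicate 6 it was −0.04, within the control range, so the groups overlapped. Without DEHP replicate 6 the log2 fold was 1.38 (adjusted p = 4.14e-07). After cyclic loess normalization the sign turned, with a log2 fold of −0.11 and an adjusted p of 0.874. That loess ran along the mean log2 ratio of each probe set, since the deposited ratios hold no intensity. The call held in every other setting run, and the cause of the turn was not tested.

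Cyp4f5, of the family that hydroxylates leukotrienes and arachidonic acid, was 1.62-fold higher (log2 fold 0.70 ± 0.12 SE, adjusted p = 0.0012). Controls had −0.75, −0.23 and −0.07 as lowest, median and highest log2 ratios, and DEHP cultures had 0.07, 0.41 and 0.66, without overlap. Cyp4v3, the rat counterpart of the fatty acid hydroxylase CYP4V2, was 1.24-fold higher (log2 fold 0.31 ± 0.06 SE, adjusted p = 0.00206). Its controls had −0.33, −0.19 and −0.02, and its DEHP cultures 0.02, 0.09 and 0.23. The groups of Cyp4v3 lay apart by a narrow margin.

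Cyp2s1, an extrahepatic enzyme of epithelia that is known as a target of the aryl hydrocarbon receptor, was the 1 member that fell. It was 1.26-fold lower (log2 fold −0.33 ± 0.10 SE, adjusted p = 0.0281). Controls had −0.04, 0.16 and 0.45 as lowest, median and highest log2 ratios, and DEHP cultures had −0.40, −0.16 and 0.06, so the groups overlapped. The call was lost without control replicate 4, DEHP replicate 1, DEHP replicate 3 or DEHP replicate 6, each left out alone, with log2 folds of −0.32 to −0.28 and adjusted p of 0.0557 to 0.0659. Without both control replicate 5 and DEHP replicate 6 its log2 fold was −0.23 (adjusted p = 0.0632). The probe set named for its pseudogene, Cyp2s1-ps1, had −0.12 ± 0.06 (adjusted p = 0.172), and array weights alone brought that to 0.0346.

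**Figure D2:**
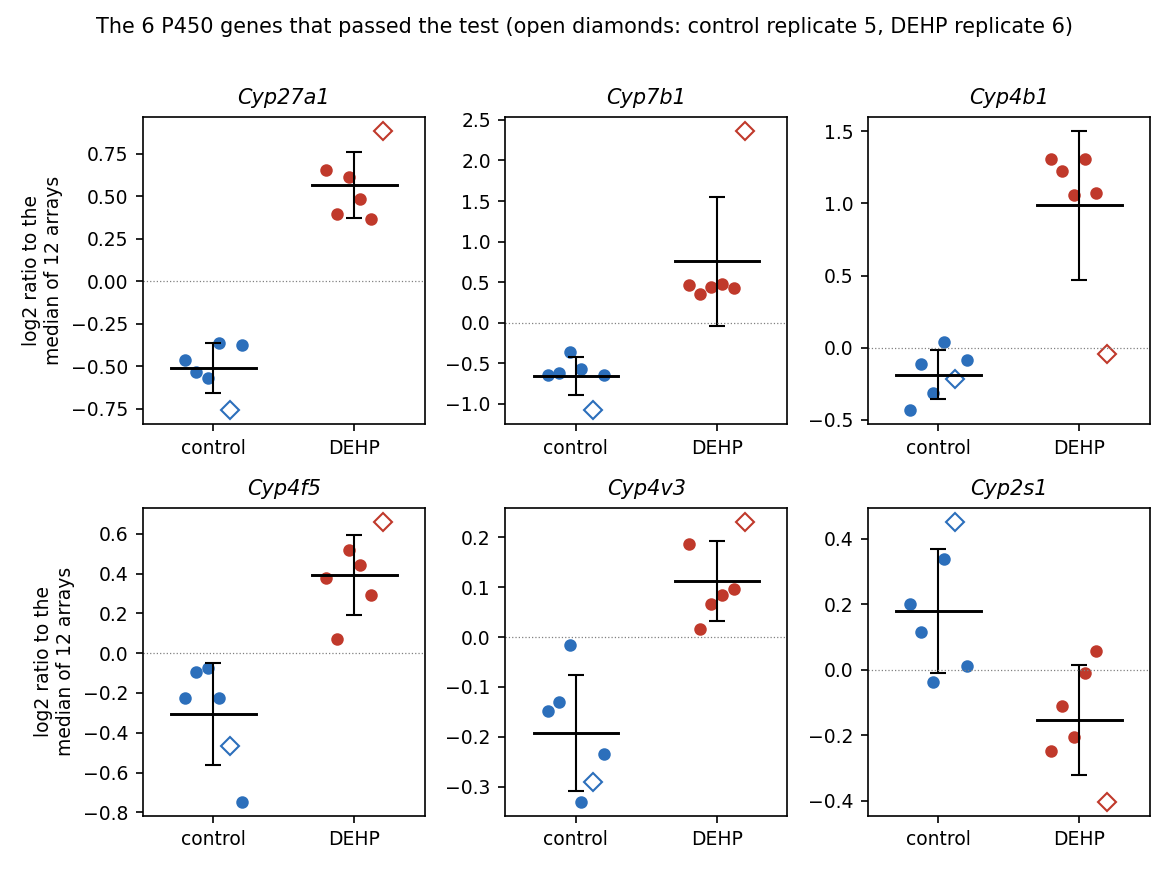
Log2 ratios of the 6 P450 genes that passed, 1 point per array, with the mean and SD of each group (n = 6). Open diamonds are control replicate 5 and DEHP replicate 6, the latter at 2.37 for Cyp7b1 and at −0.04 for Cyp4b1, where the other 5 DEHP cultures reached at least 1.06.

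DEHP replicate 6 was the DEHP culture farthest from the controls in 5 of the 6 genes that passed, and the nearest to them in Cyp4b1. In marker genes of 6 cell types that array lay outside the other DEHP arrays in each list. Mean log2 ratios of the cardiomyocyte markers were −0.20 in DEHP replicate 6, 0.11 to 0.24 in the other DEHP arrays and −0.21 to 0.03 in controls. Those of the smooth muscle markers were −1.45, −1.07 to −0.77, and 0.74 to 0.91 in the same order. Fibroblast markers had −0.09, 0.06 to 0.10, and −0.17 to −0.04, and endothelial markers −0.21, 0.09 to 0.50, and −0.35 to 0.04. Macrophage markers had 0.22, −0.11 to 0.07, and −0.26 to 0.11, and hepatocyte markers −0.07, 0.09 to 0.23, and −0.18 to 0.11. All 4 measured smooth muscle markers fell under DEHP, 2 of 3 measured endothelial markers rose, and of 8 cardiomyocyte markers 3 rose and 3 fell. Fibroblast markers had 3 rises and 2 falls among 5, macrophage markers 2 rises and 1 fall among 5, and hepatocyte markers 1 rise among 4. The share to hold beside these marker counts is the 24.4% of probe sets with a single gene name that passed in either direction. Whether marker genes were absent cannot be read from ratios. In a bulk culture fewer cells of a type and less RNA per cell cannot be told apart, and the part of cell composition in the P450 values was not tested.

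RefSeq windows from 250 bases before to 50 bases after the gene start, on the assembly GRCr8, were matched to 52 of the 66 members. They are printed 5′ to 3′ on the gene's strand for the members that passed and had one, to show the sequence next to the starts of the genes that rose and of the gene that fell. Cyp7b1 and Cyp4v3 had none. Capitals mark matches, on either strand, to 4 motifs: GCGTG, the core of the dioxin response element bound by the aryl hydrocarbon receptor, AGGTCA, the hexamer that many nuclear receptors bind, AGTTCA, a hexamer of PXR and vitamin D receptor elements, and TATAAA, the TATA box. No match overlaps another in these windows. Cyp27a1 lies at chr9:83713282-83713581 on the plus strand, Cyp4b1 at chr5:134393067-134393366 on the minus strand, Cyp4f5 at chr7:12194387-12194686 on the plus strand and Cyp2s1 at chr1:90453024-90453323 on the minus strand.
Cyp27a1: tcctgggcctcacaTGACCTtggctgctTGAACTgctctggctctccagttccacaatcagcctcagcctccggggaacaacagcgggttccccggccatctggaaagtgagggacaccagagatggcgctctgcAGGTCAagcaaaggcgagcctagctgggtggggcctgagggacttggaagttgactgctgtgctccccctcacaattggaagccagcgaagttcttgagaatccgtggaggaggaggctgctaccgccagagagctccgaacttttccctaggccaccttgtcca
Cyp4b1: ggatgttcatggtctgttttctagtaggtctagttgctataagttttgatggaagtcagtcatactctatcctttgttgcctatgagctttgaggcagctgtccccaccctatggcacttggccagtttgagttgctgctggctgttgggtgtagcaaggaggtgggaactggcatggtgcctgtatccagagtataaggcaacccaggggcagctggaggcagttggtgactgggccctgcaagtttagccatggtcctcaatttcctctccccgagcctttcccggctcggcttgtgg
Cyp4f5: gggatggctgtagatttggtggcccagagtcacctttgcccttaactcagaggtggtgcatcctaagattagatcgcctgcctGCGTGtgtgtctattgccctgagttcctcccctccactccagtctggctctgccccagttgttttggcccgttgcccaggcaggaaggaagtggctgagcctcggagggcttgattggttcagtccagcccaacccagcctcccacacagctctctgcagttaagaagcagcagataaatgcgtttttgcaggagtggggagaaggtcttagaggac
Cyp2s1: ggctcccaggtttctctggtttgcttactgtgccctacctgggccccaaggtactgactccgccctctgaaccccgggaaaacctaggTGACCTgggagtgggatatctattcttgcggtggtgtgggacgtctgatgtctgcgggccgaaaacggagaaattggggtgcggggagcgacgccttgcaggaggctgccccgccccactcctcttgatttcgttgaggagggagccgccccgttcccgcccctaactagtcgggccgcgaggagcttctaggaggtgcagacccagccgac

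The window of Cyp27a1 held 2 matches to AGGTCA and 1 to AGTTCA, that of Cyp2s1 held 1 to AGGTCA, that of Cyp4f5 held 1 to GCGTG, and that of Cyp4b1 held none of the 4. Over the 54 windows of the 52 members, AGGTCA was present in 19 (35.2%), against 16.2% of all 33469 windows of the assembly. AGTTCA was present in 13 (24.1%, against 14.5%), TATAAA in 14 (25.9%, against 14.2%) and GCGTG in 17 (31.5%, against 29.7%). Many members arose by tandem duplication and share promoter sequence, so their windows are not independent. A match is a stretch of letters and was not tested as a binding site.

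The Cyp1 family, the classical readout of the aryl hydrocarbon receptor, had 0 of 3 members passing. Of probe sets with a single gene name 24.4% passed, and 3 members are too few to be set against that share. Cyp1a1 had −0.18, −0.01 and 0.06 as lowest, median and highest log2 ratios in controls and −0.03, 0.04 and 0.10 under DEHP. The groups overlapped, and the log2 fold was 0.07 ± 0.05 (adjusted p = 0.39). The upper end of the 95% interval, a 1.13-fold rise, bounds the measured ratio only, since an absent transcript cannot be told from a steady one. Cyp1b1, the family member found in heart and vessel cells, had controls of −0.08, 0.01 and 0.10 and DEHP cultures of −0.12, −0.02 and 0.04. Its log2 fold was −0.03 ± 0.04 (95% interval −0.11 to 0.06). Cyp1a2, mainly a liver enzyme, had −0.14 ± 0.10. Its log2 ratios were −0.18, 0.16 and 0.55 in controls and −0.11, −0.01 and 0.24 under DEHP, and the highest control was control replicate 5.

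None of the Cyp4a genes, which PPAR alpha activators induce in rodent liver, passed. Of probe sets with a single gene name 24.4% passed, so the absence of a call among so few genes says little by itself. Cyp4a1 had −0.06, 0.01 and 0.17 as lowest, median and highest control log2 ratios and −0.09, −0.01 and 0.07 under DEHP, with a log2 fold of −0.03 ± 0.04 (adjusted p = 0.672). The upper end of its 95% interval was a 1.04-fold rise. From ratios alone a steady transcript cannot be told from an absent one, so the interval bounds the measured ratio only. Cyp4a3 had a log2 fold of −0.09 ± 0.09 and Cyp4a8 of 0.01 ± 0.08, with upper ends of the fold intervals at 1.07 and 1.14. In the GRCr8 gene order Cyp4a1 is the immediate neighbour of Cyp4b1 and Cyp4a3 the next, and the unadjusted p of the Cyp4a genes ran from 0.32 to 0.89. The other Cyp4f genes, Cyp4f1, Cyp4f4, Cyp4f6, Cyp4f18 and Cyp4f40, had log2 folds from −0.08 (Cyp4f4) to 0.12 (Cyp4f6), and Cyp4x1 had −0.10 ± 0.04 (adjusted p = 0.152). Cyp4f5 therefore differed from control while 5 measured relatives of its subfamily did not pass. Their folds were not tested against each other.

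The Cyp2 family is the largest here, with 30 members of which 1 fell (3.33%), 0 rose and 29 did not pass, beside the same 24.4%. After Cyp2s1 the smallest p belonged to Cyp2u1, a fatty acid hydroxylase found in many tissues. Controls of Cyp2u1 had −0.29, −0.21 and 0.02 as lowest, median and highest log2 ratios and DEHP cultures −0.26, 0.16 and 0.29. In 5 DEHP cultures the ratio was above every control, and DEHP replicate 6 was at −0.26. The log2 fold was 0.27 ± 0.09 with an adjusted p of 0.0578. It was 0.35 (adjusted p = 0.00344) without DEHP replicate 6 and 0.31 (0.0426) without control replicate 3. Quantile normalization gave an adjusted p of 0.0306, array weights 0.002, and adjusting over probe sets with 1 gene name 0.0418.

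The Cyp2j genes include arachidonic acid epoxygenases of the heart. None of the 3 measured passed, beside 24.4% of probe sets with a single gene name. Cyp2j3 had a log2 fold of −0.08 ± 0.05, Cyp2j4 of −0.14 ± 0.08 and Cyp2j10 of 0.03 ± 0.04, with the widest of their intervals from −0.31 to 0.04 for Cyp2j4. Without control replicate 5 the log2 fold of Cyp2j4 was −0.20 (adjusted p = 0.0483). In Cyp2b, 6 genes that include the CAR target Cyp2b1 (−0.01 ± 0.05), log2 folds ran from −0.07 to −0.01. The others were Cyp2b2, Cyp2b3, Cyp2b12, Cyp2b15 and Cyp2b21. Cyp2e1, the ethanol-inducible form, had −0.02 ± 0.06.

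The 6 Cyp2c genes had log2 folds from −0.13 to 0.03. Cyp2c11, the male-specific liver form, had −0.11 ± 0.04 (adjusted p = 0.0943), and Cyp2c22 had −0.10 ± 0.04 (adjusted p = 0.135, or 0.0452 with control replicate 2 left out). Cyp2c6v1, Cyp2c12, Cyp2c13 and Cyp2c23 made up the rest. The 5 Cyp2d genes, Cyp2d1 to Cyp2d5, ran from −0.13 to 0.09, the highest being Cyp2d2 (0.09 ± 0.05), which passed with array weights alone (0.16, adjusted p = 0.00946). Cyp2a1, Cyp2a2 and Cyp2a3 ran from −0.12 to 0.005. Cyp2g1, an olfactory form, had −0.10 ± 0.05, with an adjusted p of 0.15 and of 0.049 without control replicate 1. Cyp2f4 and Cyp2t1 completed the family and did not pass. Log2 folds were below 0 in 23 of the 30 Cyp2 genes and in 46 of all 66 members, beside 16161 of all 27342 probe sets. The part of control replicate 5 in this count was not tested.

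The 4 Cyp3 genes, which include the main steroid and drug hydroxylases of liver, had log2 folds from −0.09 to 0.003. Cyp3a23-3a1, a classical target of PXR, had control log2 ratios of −0.06 to 0.13 and DEHP ratios of −0.03 to 0.07. Its log2 fold was 0.003 ± 0.04, and the upper end of the 95% interval was a 1.06-fold rise, again of the measured ratio only. Cyp3a9 had control ratios of −0.05, 0.04 and 0.23 and DEHP ratios of −0.05, −0.03 and 0.04, with a log2 fold of −0.09 ± 0.05 (adjusted p = 0.225). Cyp3a18 had controls of −0.01, 0.02 and 0.03 and DEHP cultures of −0.07, −0.02 and 0.004, with a log2 fold of −0.04 ± 0.03. The groups overlapped in both, and Cyp3a2 did not pass either. Near-identical paralogs within Cyp2a, Cyp2b, Cyp2c, Cyp2d, Cyp3a, Cyp4a and Cyp11b can share probes, so the assignment of signal to 1 gene of these subfamilies is uncertain.

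**Figure D3:**
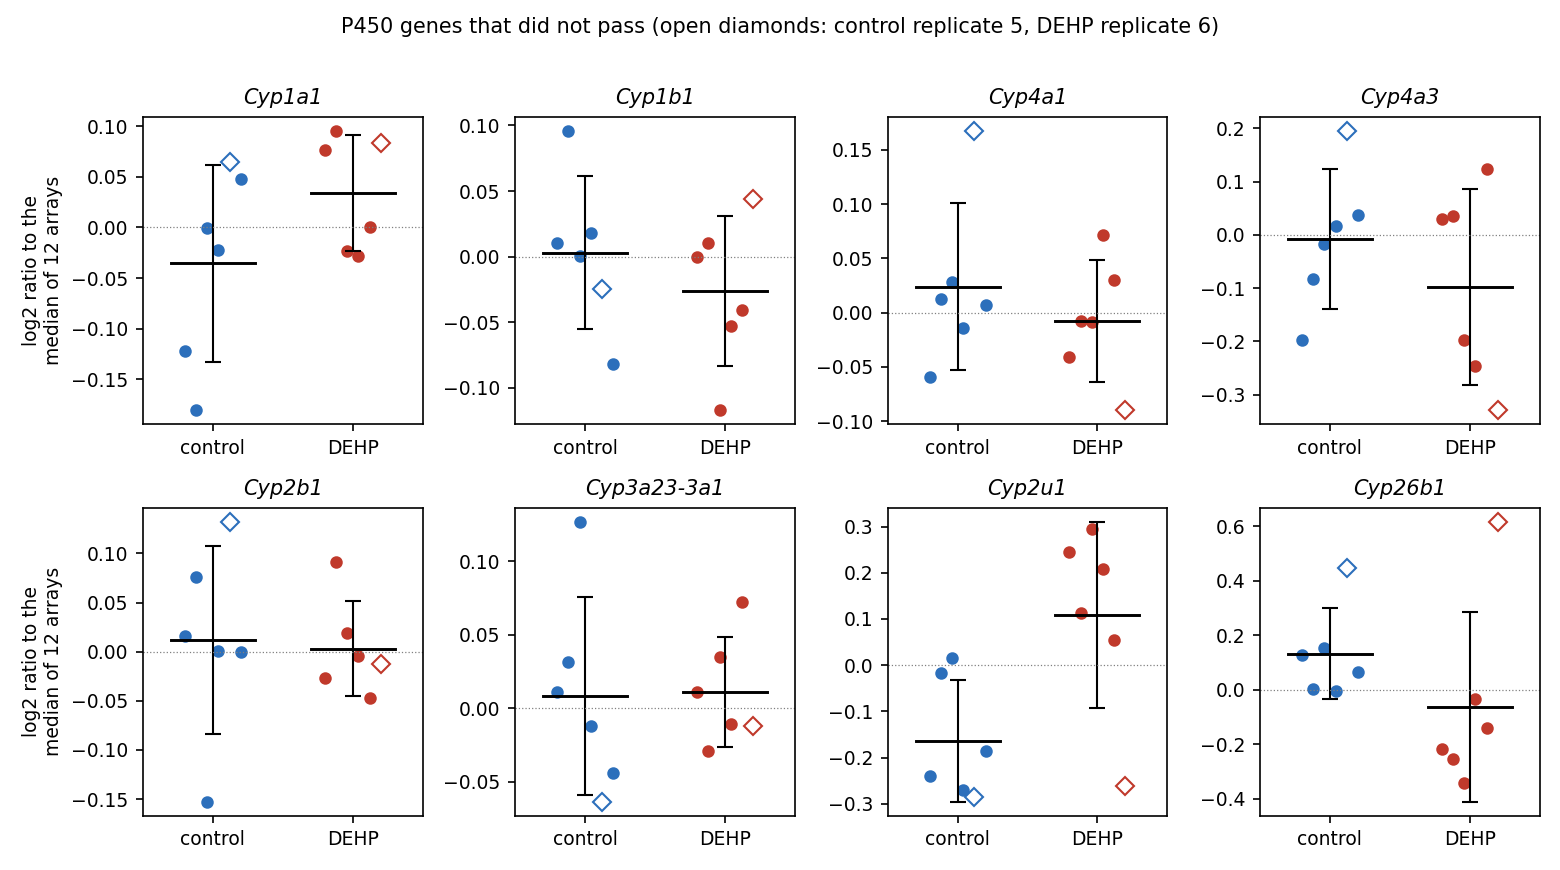
Log2 ratios of 8 P450 genes that did not pass, 1 point per array, with the mean and SD of each group (n = 6). The groups overlap in each panel, with Cyp1a1 between −0.18 and 0.10, and open diamonds mark control replicate 5 and DEHP replicate 6, the latter at 0.62 for Cyp26b1 and −0.26 for Cyp2u1.

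Steroid-forming P450 genes gave 0 calls among 6, beside the 24.4% of probe sets with a single gene name that passed. A group of 6 is too small to be told apart from that share. Cyp11b1, which makes corticosterone in the adrenal, had lowest, median and highest log2 ratios of −0.06, 0.08 and 0.25 in controls and −0.11, −0.01 and 0.003 under DEHP, with a log2 fold of −0.11 ± 0.05 (adjusted p = 0.139, and 0.0472 without control replicate 3). Cyp11b2, aldosterone synthase, had controls of −0.04, 0.04 and 0.41 and DEHP cultures of −0.15, −0.03 and 0.004, and its log2 fold was −0.16 ± 0.07 (adjusted p = 0.159). The highest control value of Cyp11b2 was that of control replicate 5. Cyp11a1, which cleaves the side chain of cholesterol, had −0.10 ± 0.08. Cyp11b3, Cyp17a1 and Cyp21a1 had log2 folds between −0.06 and −0.01.

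The retinoic acid hydroxylases Cyp26a1 and Cyp26b1 did not pass over all arrays. Cyp26a1 had controls of −0.13, 0.07 and 0.55 as lowest, median and highest log2 ratios and DEHP cultures of −0.36, −0.18 and 0.20, with a log2 fold of −0.25 ± 0.11 (adjusted p = 0.174). The 0.55 was that of control replicate 5. Cyp26b1 had controls of −0.003, 0.10 and 0.45 and DEHP cultures of −0.34, −0.18 and 0.62. Its log2 fold was −0.19 ± 0.14 (adjusted p = 0.424). DEHP replicate 6, at 0.62, was the highest of the 12 arrays, and the other 5 DEHP cultures lay at or below −0.03. Without DEHP replicate 6 the log2 fold of Cyp26b1 was −0.33 (adjusted p = 0.0154), and without control replicate 5 as well it was −0.27 (0.00568). Cyp20a1, an enzyme with no established substrate, had controls of −0.50, −0.02 and 0.23 and DEHP cultures of −0.18, 0.03 and 0.23, which overlapped, with a log2 fold of 0.10 ± 0.11.

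Genes that work with P450 enzymes were read from 8 lists of 97 genes, of which 80 genes with 82 probe sets were measured. Of these probe sets 18 rose, 10 fell and 54 did not pass, so that 34.1% passed. Among all probe sets with a single gene name 24.4% passed, the share to hold beside the counts of each list below. The lists were chosen with earlier results of these data known, so these shares cannot tell whether partner genes changed more often than others. Prostacyclin synthase, Ptgis, is itself a P450 enzyme under another symbol and had the smallest p among the listed enzymes. Its first probe set was 2.41-fold lower (log2 fold −1.27 ± 0.10 SE, adjusted p = 2.15e-06), with control log2 ratios of 0.44, 0.61 and 0.73 and DEHP ratios of −1.14, −0.63 and −0.44. Its second probe set was 1.39-fold lower (−0.48 ± 0.08, adjusted p = 0.00128). The groups did not overlap in either. Thromboxane synthase, Tbxas1, had 0.03 ± 0.05.

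Electron donors and partner proteins gave 1 rise and 1 fall among 10 probe sets. Pgrmc2, a heme-binding membrane protein, rose (0.59 ± 0.07), and Cyb5r3, the reductase of cytochrome b5, fell (−0.26 ± 0.08). The latter call was lost without control replicate 2, control replicate 4, control replicate 6 or DEHP replicate 5 (−0.25 to −0.23, adjusted p 0.0565 to 0.0649). Por, which passes electrons from NADPH to the microsomal P450 enzymes, had 0.16 ± 0.06 (adjusted p = 0.0779, but 0.0325 without DEHP replicate 5 and 0.013 with array weights). Fdx1, the donor of the mitochondrial enzymes such as Cyp27a1, had −0.15 ± 0.08 (adjusted p = 0.264). Its log2 fold was −0.21 (adjusted p = 0.0156) without control replicate 5, and −0.23 (0.0116) without DEHP replicate 6 as well. Fdx1 also passed after quantile normalization (−0.21, 0.0443) and with array weights (−0.22, 0.0067). Among 11 genes of heme synthesis and breakdown 2 rose, both on the side of breakdown, namely heme oxygenase Hmox1 (0.50 ± 0.10) and biliverdin reductase Blvrb (0.33 ± 0.06), and 0 fell.

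Soluble epoxide hydrolase, Ephx2, which opens the fatty acid epoxides that P450 epoxygenases make, was 1.53-fold higher (log2 fold 0.61 ± 0.10 SE, adjusted p = 0.000802). Its controls had −0.41, −0.20 and −0.08 and its DEHP cultures 0.08, 0.36 and 0.80 as lowest, median and highest log2 ratios, without overlap. It was the 1 call among 4 epoxide hydrolases. The microsomal form Ephx1 had 0.20 ± 0.09 (adjusted p = 0.155) and passed with array weights (0.22, 0.00877).

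In steroid synthesis and conversion 3 of 16 genes rose and 2 fell. Star, which delivers cholesterol to the inner mitochondrial membrane, was 1.46-fold higher (log2 fold 0.55 ± 0.11 SE), with DEHP replicate 6 at 0.68 and the other DEHP cultures at 0.08 to 0.21. Without that array its log2 fold was 0.45 (adjusted p = 0.00186). Hsd11b1, which regenerates active glucocorticoid, and Hsd17b11 rose by log2 folds of 0.33 ± 0.06 and 0.32 ± 0.06. Hsd17b7, which also serves cholesterol synthesis, fell (−0.46 ± 0.08), as did Srd5a3, a reductase needed for protein glycosylation (−0.24 ± 0.05).

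Among 14 retinoid genes 2 rose and 2 fell. Rdh10, which makes retinal from retinol, was 2.06-fold higher (log2 fold 1.04 ± 0.09 SE, adjusted p = 3.62e-06), with control log2 ratios of −0.80 to −0.36 and DEHP ratios of 0.36 to 0.86. Lrat, which stores retinol as esters, was 1.48-fold higher (0.56 ± 0.13), and there DEHP replicate 6 lay at −0.12, within the control range. Aldh1a2, which makes retinoic acid, fell (−0.53 ± 0.12), as did Aldh1a3 (−0.23 ± 0.07). The call of Aldh1a3 was lost on leaving out any 1 of control replicates 1 and 2 and DEHP replicates 1, 2, 3 and 4 (−0.23 to −0.21, adjusted p 0.0534 to 0.0758).

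**Figure D4:**
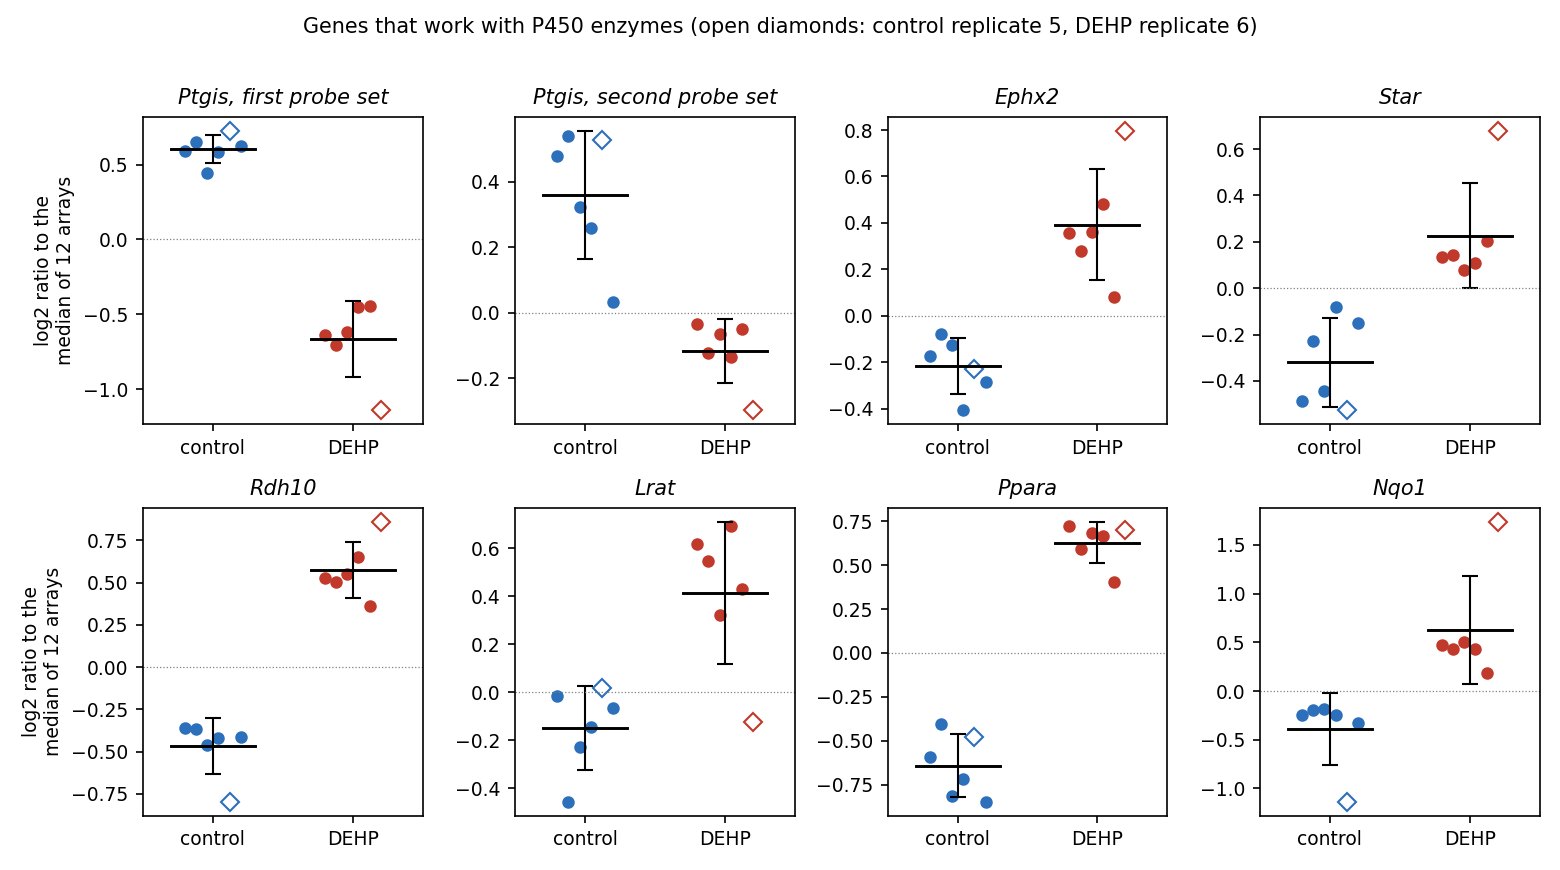
Log2 ratios of genes that work with P450 enzymes, 1 point per array, with the mean and SD of each group (n = 6). The first probe set of Ptgis fell in every DEHP culture, to between −1.14 and −0.44, while Ephx2, Star, Rdh10, Ppara and Nqo1 were higher without overlap, and in Lrat DEHP replicate 6, an open diamond, lay among the controls.

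Regulators of Cyp genes had 7 rises and 3 falls among 21. Ppara, the receptor that controls Cyp4a in liver, rose (1.27 ± 0.08), while the Cyp4a genes did not pass, as given above. Nr3c1, the glucocorticoid receptor (0.57 ± 0.10), Nr0b2, a corepressor that restrains Cyp7a1 in liver (0.36 ± 0.06), Nr1h2, an oxysterol receptor (0.33 ± 0.05), and Rxra, the partner of many of them (0.23 ± 0.05), were higher. Nr1h4, the bile acid receptor, was lower (−0.40 ± 0.05). The aryl hydrocarbon receptor Ahr itself fell (−0.28 ± 0.05) together with Arnt2 (−0.29 ± 0.06). The partner Arnt had 0.25 ± 0.07, a rise whose call was lost on leaving out control replicate 4 or 6 or DEHP replicate 1, 3, 4 or 6 (0.22 to 0.25, adjusted p 0.0543 to 0.0775). Nfe2l2, at 0.25 ± 0.08, lost its call without any 1 of 10 arrays, all but DEHP replicates 5 and 6 (0.21 to 0.27, adjusted p 0.0506 to 0.0816). The CAR gene Nr1i3 (−0.02 ± 0.06) and the PXR gene Nr1i2 (−0.08 ± 0.08) did not pass.

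Of the 4 measured genes known as targets of the aryl hydrocarbon receptor outside Cyp1, 2 rose. Nqo1, which also responds to Nrf2, was 2.02-fold higher (log2 fold 1.02 ± 0.25 SE, adjusted p = 0.0104), with control replicate 5 at −1.14 and DEHP replicate 6 at 1.74. Without both arrays its log2 fold was 0.65 (adjusted p = 8.27e-06). Aldh3a1 rose by 0.18 ± 0.04. The receptor's repressor gene Ahrr, a sensitive target, had 0.07 ± 0.08 (adjusted p = 0.637). After cyclic loess, 6 of the partner and regulator calls named above were lost with the direction kept, in Nr0b2 (adjusted p = 0.523), Srd5a3 (0.202), Cyb5r3 (0.185), Nr1h2 (0.065), Aldh1a3 (0.061) and Ahr (0.0595). As for Cyp4b1, that loess ran along mean ratios and not intensities.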

How the data were processed

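RNA of 12 cultures, 6 control and 6 DEHP, was measured on Affymetrix arrays. The deposited values are linear ratios, processed with RMA by the authors per the submitters' processing notes, with no version given and with background and scaling details not given in the sources used here. Since no probe set's median log2 ratio across the 12 arrays differed from 0 by more than 5e-07, the ratios are relative to that median. The number of arrays limits the precision.

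Log2 of the ratios was tested with limma 3.58.1 in R 4.3.3 (lmFit and eBayes, two-sided), with Benjamini-Hochberg adjustment over all 27342 probe sets and a threshold of 0.05. Errors after ± on log2 folds are SE, and intervals are 95%. Probe sets were named by the platform annotation, in which 15097 had 1 gene symbol, 323 several and 11922 none. All 66 members matched a RefSeq gene table of GRCr8 by Entrez identifier, with 0 symbols changed. Cyp51 and probe sets with several symbols or none were left out. In simulated data for 27342 probe sets, 200 were changed. The fit recovered 77% of those with a log2 fold of 0.5 and 98% of those with 1, with 8 false among 183 calls. The measured data differ, with 5016 probe sets called and a wider spread in control replicate 5 (SD 0.37) and DEHP replicate 6 (SD 0.27). The simulated shares therefore cannot be taken as the recovery or the share of false calls in the measured data.

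The members, the 8 gene lists, the markers and the alternatives were chosen with earlier results of these data known. The lowest, median and highest value of each group were given for members that passed or whose groups lay apart and for the 2 members of each family with the smallest p. Further members were named as classical targets, and of the lists all genes that passed were named. The alternatives run were array weights, robust eBayes, 3 normalizations (cyclic loess, quantile and median centring), a minimum fold of 1.2, an adjusted p under 0.01, testing probe sets with 1 gene symbol, the mean of a gene's probe sets, the replicate number as a block, and leaving out arrays. Plots used matplotlib 3.10.9.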

Additional observations from a re-analysis of the deposited data

Results flagged for a closer look

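In groups of 6 arrays, a highest or lowest value was singled out when its gap to the nearest other exceeded Dixon's critical value. Chance singles out about 1 group in 20. Among the 132 groups of the 66 members this happened 16 times, 6 times in control replicate 5 and 5 times in DEHP replicate 6.

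DEHP replicate 6 stood apart in Cyp7b1 (log2 ratio 2.37, the other DEHP arrays 0.36 to 0.48), Cyp4b1 (−0.04, others 1.06 to 1.31), Cyp26b1 (0.62, others −0.34 to −0.03), Cyp4f6 (−0.13, others 0.01 to 0.07) and Cyp3a2 (0.07, others −0.02 to 0.01). Control replicate 5 stood apart in Cyp26a1 (0.55, other controls −0.13 to 0.09), Cyp2a1 (0.46), Cyp26b1 (0.45), Cyp17a1 (0.41), Cyp4f40 (0.30) and Cyp39a1 (−0.34). Single values in other arrays were those of Cyp2s1-ps1 in DEHP replicate 1 (−0.14), Cyp11b1 in DEHP replicate 2 (−0.11), Cyp8b1 in DEHP replicate 4 (−0.41) and Cyp1a2 (0.24) and Cyp17a1 (0.23) in DEHP replicate 5.

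Among the partner genes, DEHP replicate 6 stood apart in Nqo1 (1.74), Star (0.68), Nfe2l2 (0.49), Hsd11b1 (0.46), Aldh1a2 (0.17) and the first probe set of Ptgis (−1.14). Control replicate 5 did so in Nqo1 (−1.14), Rdh10 (−0.80), Nr3c1 (−0.67), Pgrmc2 (−0.64), Ephx1 (−0.48), Rxra (−0.33), Nfe2l2 (−0.28), Aldh1a2 (−0.17) and Nr0b2 (−0.01). Nr1h2 had its outlying value in control replicate 4 (−0.05) and Tbxas1 in DEHP replicate 4 (0.19).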

How the results depend on the processing

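The members higher under DEHP numbered 4 to 7 under the alternatives run. The members lower numbered 2 after quantile normalization, after cyclic loess and with the replicate number as a block, 3 with array weights, and 0 against a minimum fold of 1.2 or at an adjusted p under 0.01, and ranged from 0 to 2 with each array left out. All probe sets called numbered 5016 as deposited, 7614 with array weights, 1182 against a minimum fold of 1.2 and 3238 at an adjusted p under 0.01. The partner genes called fell from 28 to 4 against that minimum fold.

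In some setting the sign turned in 17 of the 66 members, namely Cyp4b1 (−0.11 after cyclic loess) and members that did not pass, whose log2 folds were at most 0.052 in size. Values are given for those among the 41 members whose own folds are reported. These were Cyp2b1 (0.010 after quantile normalization, 0.0082 after cyclic loess), Cyp2e1 (0.013 after quantile normalization, 0.014 with array weights), Cyp3a23-3a1 (−0.0037 and −0.00065 in those settings) and Cyp4a8 (−0.00084 with array weights). Without control replicate 5 and DEHP replicate 6 together, Cyp2b1 was at 0.019, Cyp2e1 at 0.044, Cyp3a23-3a1 at −0.0072, Cyp4a1 at 0.014, Nr1i2 at 0.0012 and Nr1i3 at 0.031, and Nr1i3 was at 0.0059 after quantile normalization. With each array left out, values ran from −0.042 to 0.015 in Cyp2b1, −0.044 to 0.017 in Cyp2e1, −0.012 to 0.026 in Cyp3a23-3a1, −0.046 to 0.058 in Cyp4a8, −0.0065 to 0.046 in Tbxas1 and −0.056 to 0.016 in Nr1i3. The causes were not tested.

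In arrays of the same replicate number, deviations from the group means correlated by 0.77 for number 5 and by 0.07 to 0.35 for the other numbers. Of 12 arrays, 5 correlated best with their own number, and whether same-numbered cultures shared a preparation was not tested. With the replicate number as a block, Cyp2u1 (adjusted p = 0.0323) and Cyp24a1 (0.023) passed besides the 6 members, as did Por (0.0342) and Ephx1 (0.0218) among the partner genes named, and 6541 probe sets were called. A filter on dim probe sets could not be run on ratios.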
